A study of Mus musculus with 2 samples.

Results

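Blood-brain barrier endothelial genes were followed here as 10 genes given by name: Cldn5, Pecam1, Slco1a4, Slco1c1, Abcb1a, Flt1, Tek, Eltd1, Ly6c1 and Ly6a. They are 10 of the 23329 genes in the deposited files, and the estimated counts of their transcripts were summed per gene. Endothelial cells line the vessels of the brain, and in this organ tight junctions seal them to each other. Uptake carriers and efflux pumps in their membranes then decide what passes between blood and brain. The barrier state depends on vascular growth factor receptors and on signals from the pericytes and astrocyte endfeet around the vessel.

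The study set RNA of a synaptosome fraction against RNA of total brain homogenate to find synaptically enriched mRNA, the purpose named in its title. Synaptosomes are nerve endings that break off and reseal when brain is homogenised. The synaptosome group was 1 library from wild-type (WT) C57BL/6 whole brain, taken between 3% and 10% Percoll after nuclei had been removed at low speed. The homogenate group was 1 library from WT C57BL/6 whole brain, labelled total homogenate. Both titles carry the code CT10, which the labels do not explain, and the number, age and sex of the mice are not given. Each ratio therefore compares these 2 libraries, no value has a replicate, and no p-value is given.

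The libraries held 13709528 estimated counts in the synaptosome fraction and 15210838 in the homogenate. Ratios are synaptosome over homogenate after TMM scaling, which sets the typical gene near 1, and every interval is an exact 95% interval that covers counting error only. A gene was counted as lower or higher if it differed by 2-fold or more with a 95% interval clear of equality. Of 14153 genes tested, those averaging 1 CPM (scaled counts) or more, 1288 (9.10%) were lower in the synaptosome fraction and 1807 (12.8%) were higher. With library totals in place of TMM, 25.6% were lower and 4.49% higher, because every log2 ratio shifts by -0.49. The synaptosome library is RNA of a fraction, so a ratio gives neither a number of endothelial cells nor an amount of RNA per cell.

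All 10 genes passed the filter on low values. Of the 10, 9 were lower in the synaptosome fraction and 0 were higher, against 9.10% of all tested genes that were lower. The same 9 were also at least 4-fold lower, a size reached by 1.31% of tested genes. The median log2 ratio of the 10 genes was -3.17, beside -0.01 over all tested genes. The exception was Slco1c1, a carrier of thyroid hormone and organic anions, with a log2 ratio of -0.29 (-0.43 to -0.14). The genes were proposed with earlier results of these libraries known, so their direction is a description.

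Levels per transcript length are given as TPM, which allow genes to be compared within a library. In the synaptosome fraction Slco1c1 stood far above the others at 31.4 TPM (28.9 to 34.1), and the other 9 genes lay between 0.66 TPM for Tek and 6.40 TPM for Ly6c1. In the homogenate Ly6c1 was the highest at 100.1 TPM (91.4 to 109.4), followed by Ly6a at 66.4 TPM, Slco1c1 at 55.6 TPM, Slco1a4 at 43.1 TPM and Cldn5 at 31.8 TPM. Flt1, Abcb1a and Pecam1 lay close there, with overlapping intervals at 15.5, 15.5 and 15.1 TPM. The intervals of Eltd1 at 11.5 TPM and Tek at 9.11 TPM touched. Touching or overlap of separate intervals does not show that genes cannot be ordered, and their differences were not tested. Slco1c1 made up 58.9% of the summed TPM of the 10 genes in the synaptosome fraction and 15.3% in the homogenate.

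**Figure D1:**
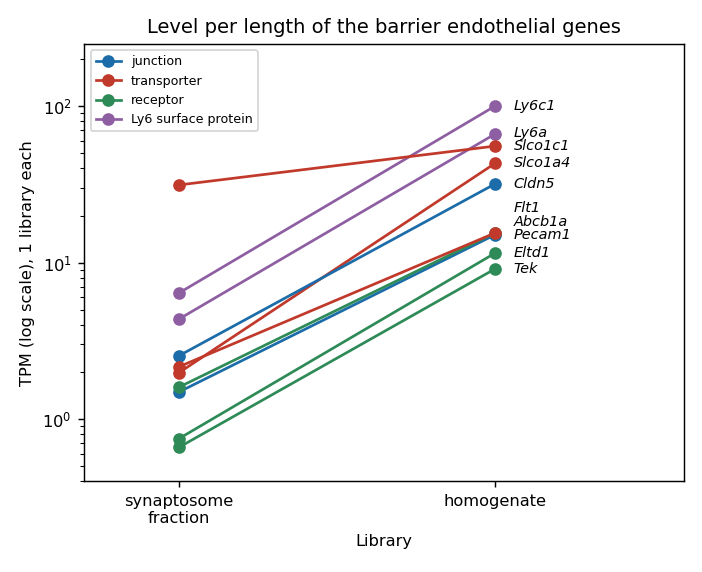
Level of each of the 10 genes in TPM (log scale) in the synaptosome fraction and in the homogenate, with 1 library each and a line joining the values of a gene. The line of Slco1c1 is the flattest, at 31.4 and 55.6 TPM, while the other 9 genes sit between 0.66 and 6.40 TPM in the synaptosome fraction.

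The junction genes were both lower. Cldn5 encodes claudin 5, the main claudin of the endothelial tight junction, in a single exon on chromosome 16 (18776847 to 18778262, mm10, forward strand). It had 20 counts in the synaptosome fraction and 269 in the homogenate, or 2.54 and 31.8 TPM, and its scaled ratio was 8.61-fold lower (5.47 to 14.3). Pecam1 encodes CD31, an adhesion molecule between endothelial cells that leukocytes and platelets also make, on chromosome 11 (106654218 to 106715281). It had 28 counts in the synaptosome fraction and 308 in the homogenate and was 7.04-fold lower (4.78 to 10.8).

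Pecam1 was deposited as 2 transcripts that differ by 1 coding exon of 57 bases. It is exon 14 of 15 in the longer transcript, lies in the cytoplasmic tail, and carries a tyrosine-based inhibitory motif that PECAM-1 uses for signalling. The exon, at chr11:106671742-106671798 (mm10, reverse strand, read from the GENCODE M21 transcript), is shown because the count estimates of the pair turn on it.
Pecam1 exon 14: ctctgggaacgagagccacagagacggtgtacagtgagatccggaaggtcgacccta
In the synaptosome fraction 28 counts were assigned to the transcript without the exon and 0 to the transcript with it, against 79.6 and 228 in the homogenate. The deposited posterior estimates divided the synaptosome counts differently, with 16.1 without the exon and 11.9 with it, against 84.9 and 223 in the homogenate. The share without the exon was thus 100% or 57.5% in the synaptosome fraction, by method, and 25.8% or 27.6% in the homogenate. At 28 counts the split in the synaptosome fraction was not settled, whereas the sum for the gene was the same by both estimates.

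Of the 3 transporters, the carriers Slco1a4 and Slco1c1 are neighbours on chromosome 6, with 235 kb between them, and lay at opposite ends of the 10 ratios. Slco1a4, an organic anion carrier of brain capillaries (141805440 to 141856171), had 44 counts in the synaptosome fraction and 1028 in the homogenate, or 1.98 and 43.1 TPM. It was 15.0-fold lower (11.1 to 20.7), and 15 of the 14153 tested genes had a lower ratio. Slco1c1 (141524386 to 141570177) had 576 counts in the synaptosome fraction and 1097 in the homogenate, or 31.4 and 55.6 TPM. It was 1.22-fold lower (1.10 to 1.35), and 36.4% of tested genes had a lower ratio. Slco1c1 is also made by astrocytes. In the same libraries 12 of 14 astrocyte markers were higher in the synaptosome fraction and 0 lower, beside 12.8% and 9.10% of all tested genes. Their median log2 ratio was 1.54, with a range of 0.82 to 2.47. With library totals the median was 1.04, and 7 of the 14 were higher, beside 4.49% of all tested genes. The astrocyte markers summed to 10263 TPM in the synaptosome fraction and 3497 TPM in the homogenate, and their part in the Slco1c1 value was not tested.

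The promoter windows of Slco1a4 and Slco1c1, from RefSeq on GRCm38.p6, are shown as the ends of the range among these genes. Each runs from 250 bases before to 50 bases after the RefSeq start, 5′ to 3′ on the gene's strand, at chr6:141856171-141856470 (reverse strand) for Slco1a4 and chr6:141524104-141524403 (forward strand) for Slco1c1. Capitals mark matches, on either strand, to AGGAAG (bound by ETS factors), AACAAT (SOX factors) or CTTTGA (TCF/LEF factors), 3 families known for roles in endothelium.
Slco1a4: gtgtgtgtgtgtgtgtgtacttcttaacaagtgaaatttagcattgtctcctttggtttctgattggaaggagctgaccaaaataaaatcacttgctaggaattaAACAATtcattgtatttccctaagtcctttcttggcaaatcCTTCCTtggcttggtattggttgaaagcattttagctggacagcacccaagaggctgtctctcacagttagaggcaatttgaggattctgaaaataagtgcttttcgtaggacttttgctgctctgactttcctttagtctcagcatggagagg
Slco1c1: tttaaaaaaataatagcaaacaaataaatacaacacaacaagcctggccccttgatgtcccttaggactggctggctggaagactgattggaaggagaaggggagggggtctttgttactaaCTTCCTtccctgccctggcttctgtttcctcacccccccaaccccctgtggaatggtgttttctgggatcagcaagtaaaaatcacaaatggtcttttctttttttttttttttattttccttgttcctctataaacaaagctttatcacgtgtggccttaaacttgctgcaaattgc
The Slco1a4 window held 1 match to the ETS letters and 1 to the SOX letters, and the Slco1c1 window held 1 to the ETS letters. Windows were found for 8 of the 10 genes, Eltd1 under its current symbol Adgrl4, and there was no entry for Pecam1 or Ly6a. AGGAAG was present in 5 of the 8 windows, AACAAT in 2 and CTTTGA in 1, against 35.4%, 10.7% and 16.0% of all 32851 windows of the same length. The Abcb1a window, which is the 1 with CTTTGA and 1 of the 5 with AGGAAG, lies 93001 bases from the start of the deposited Abcb1a transcript. A match is a description of letters and was not tested as a binding site.

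Abcb1a encodes P-glycoprotein, the efflux pump that keeps many drugs out of the brain, on chromosome 5 (8660092 to 8748570). It had 63 counts in the synaptosome fraction and 483 in the homogenate, or 2.16 and 15.5 TPM, and was 4.91-fold lower (3.77 to 6.49). Its paralog Abcb1b had 81 counts in the synaptosome fraction and 72 in the homogenate and lay on the other side of the typical gene, with a log2 ratio of 0.81 (0.34 to 1.29). Abcb4, a phospholipid flippase of the same family, had 99 counts in the synaptosome fraction and 94 in the homogenate, with a log2 ratio of 0.72 (0.30 to 1.14). The sequences of Abcb1a and Abcb1b are close enough that reads may be divided between them by estimate, and with both genes summed the log2 ratio was -1.30.

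Each of the 3 receptors was lower in the synaptosome fraction. Flt1, the vascular endothelial growth factor receptor 1, is on chromosome 5 (147562196 to 147725988) and had 59 counts in the synaptosome fraction and 613 in the homogenate. It was 6.65-fold lower (5.09 to 8.85). Tek, the angiopoietin receptor Tie2, is on chromosome 4 (94739300 to 94874939) and had 18 counts in the synaptosome fraction and 266 in the homogenate. It was 9.46-fold lower (5.87 to 16.2). Eltd1, an adhesion G protein-coupled receptor of endothelium now called Adgrl4, is on chromosome 3 (151437882 to 151545081) and had 18 counts in the synaptosome fraction and 295 in the homogenate. It was 10.5-fold lower (6.53 to 18.0). With 18 counts each, the synaptosome values of Tek and Eltd1 are the least precise of the 10.

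Relatives of these receptors had ratios on both sides of the typical gene. The endothelial paralogs were also lower, with log2 ratios of -3.04 (-3.94 to -2.26) for Tie1, -2.30 (-3.42 to -1.35) for Flt4 and -1.69 (-2.17 to -1.23) for Kdr, the main signalling receptor for vascular endothelial growth factor. The latrophilins, neuronal adhesion receptors related to Eltd1, were not. Lphn1 had 13330 counts in the synaptosome fraction and 8711 in the homogenate (log2 ratio 1.26), and Lphn3 had 1936 and 1012 (1.58). Lphn2 had a log2 ratio of 0.47, which becomes negative with library totals. Cd97, a relative that is not a latrophilin, had one of -0.83 (-1.24 to -0.44), which passes the 2-fold size with library totals.

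Ly6c1 and Ly6a encode small surface proteins held by a lipid anchor, and Ly6a is also known as Sca-1. They lie 46.1 kb apart on chromosome 15, at 75044018 to 75048837 and 74994877 to 74997888. Ly6c1 had 28 counts in the synaptosome fraction and 482 in the homogenate, or 6.40 and 100.1 TPM, and had a log2 ratio of -3.46 (-4.07 to -2.91). Ly6a had 19 counts in the synaptosome fraction and 311 in the homogenate, or 4.36 and 66.4 TPM, and was 10.5-fold lower (6.60 to 17.6). Their ratios differed by less than counting error. Ly6c1 was deposited as 5 transcripts, of which NM_010741 held 91.0% of the gene's counts in the synaptosome fraction and 77.0% in the homogenate. By the posterior estimates those shares were 59.2% in the synaptosome fraction and 76.7% in the homogenate, so the split was not settled there. The near-identical Ly6c2 had 1 count in the synaptosome fraction and 0 in the homogenate.

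Other members of the Ly6 family did not share that ratio. Of 18 listed, 7 could be tested, with log2 ratios from -0.56 to 1.01. Of the 7, 0 were lower and 1 (14.3%) was higher, beside 9.10% and 12.8% of all tested genes. Ly6e, a widely made member, had 1887 counts in the synaptosome fraction and 3612 in the homogenate, with a log2 ratio of -0.29. Lynx1, a modulator of nicotinic receptors in neurons, had 8872 counts in the synaptosome fraction and 6880 in the homogenate (log2 ratio 1.01). With library totals Lynx1 was under 2-fold, and Ly6h, at 0.38, became negative.

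Ordered by ratio from the lowest, the genes ran Slco1a4, Ly6c1, Eltd1, Ly6a, Tek, Cldn5, Pecam1, Flt1, Abcb1a and Slco1c1. Of the 9 neighbouring pairs in that order, 1 differed beyond counting error: the ratio of Slco1c1 was 4.02 times that of Abcb1a (3.03 to 5.42). Among the 36 pairs of the other 9 genes, 9 had an interval that excluded equality, with no adjustment for the number of pairs. Abcb1a exceeded 6 of the 8 genes below it in this way, and it was 3.05 times the ratio of Slco1a4 (2.01 to 4.66). Flt1 exceeded Slco1a4 and Ly6c1, and Pecam1 exceeded Slco1a4. The ratios of Eltd1, Ly6a, Tek and Cldn5 could not be separated from each other.

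**Figure D2:**
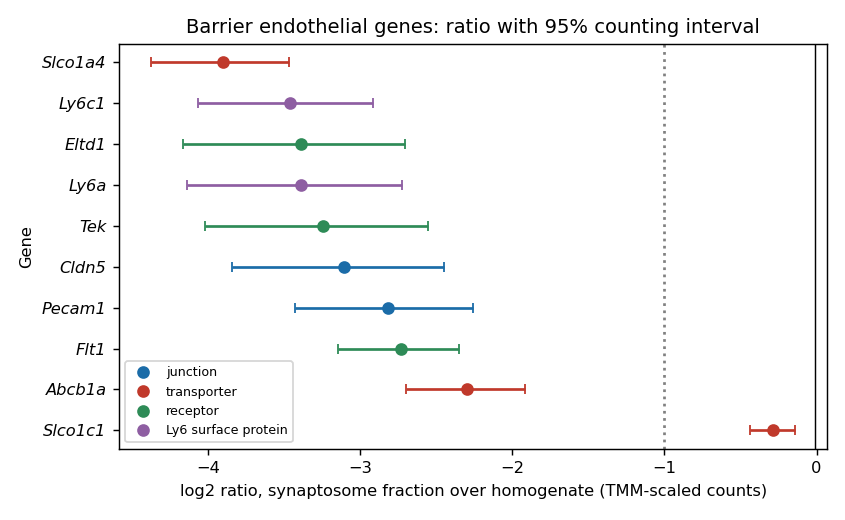
Log2 ratio of synaptosome fraction over homogenate for the 10 genes, coloured by role, with exact 95% counting intervals as bars. The dotted line marks 2-fold lower and the solid line the median of all tested genes, at -0.01. Slco1c1, at -0.29, is the gene to the right of the dotted line, and the other 9 lie between -3.90 and -2.30.

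The share of lower genes was also counted among genes of like abundance and like annotation. Among the 6568 other tested genes within the abundance range of the 10, 7.06% were lower in the synaptosome fraction. The submitters' annotation places all 10 gene products in the plasma membrane. Of 2127 other tested genes with that annotation, 125 (5.88%) were lower and 453 (21.3%) higher, with a median log2 ratio of 0.36. Of 72 other tested genes annotated to the tight junction 4 (5.56%) were lower, and of 159 annotated to angiogenesis 22 (13.8%) were lower. The deposited transcript with the most counts for each of the 10 genes ranged from 828 to 6280 bases. Spearman's rho of ratio with that length was 0.32 over these 10 genes, which share both libraries.

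**Figure D3:**
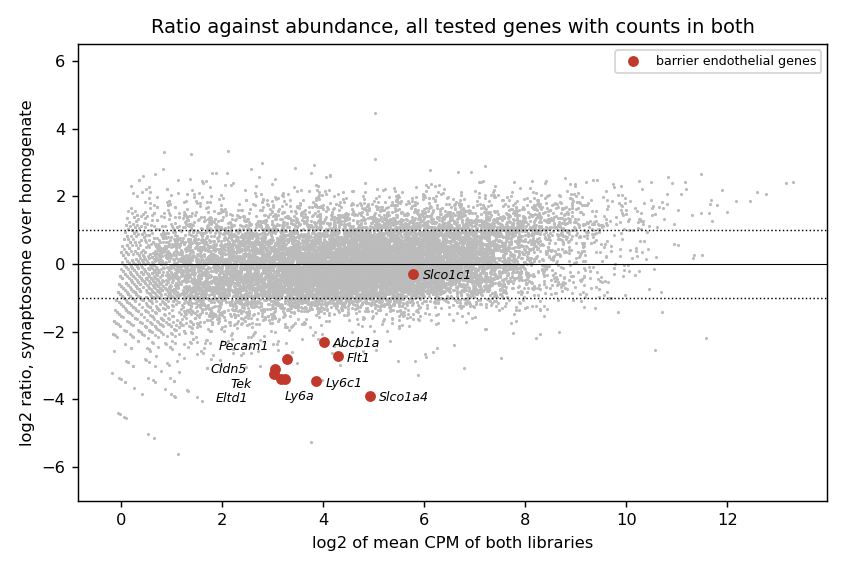
Log2 ratio of synaptosome fraction over homogenate against the log2 mean CPM after TMM scaling. The 14145 tested genes with counts in both libraries are in grey, with the 10 barrier endothelial genes in red. The dotted lines mark 2-fold. Of the red points, 9 lie at -2.30 or lower, among the 126 tested genes at or below the ratio of Abcb1a, and Slco1c1 lies at -0.29.

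Ratios in 4 lists of other endothelial genes were divided, and how far each listed gene is limited to endothelium was not tested. Of 91 further genes in these lists, 87 could be tested, and 30 (34.5%) were lower and 6 (6.90%) higher in the synaptosome fraction. The shares over all tested genes were 9.10% and 12.8%. With library totals 40 of the 87 were lower, beside 25.6% of all tested genes. Of the 30 lower genes, 4 averaged 10 CPM or more, as did all 6 higher genes. The median log2 ratio of the 87 was -0.38. Transcription factors had the largest share lower, with 10 of 19, then receptors and signalling with 8 of 25, junction and surface with 7 of 22, and transporters with 5 of 21. The defining markers were found in both libraries. Emcn, an endothelial sialomucin, had 1.27 TPM in the synaptosome fraction and 14.5 TPM in the homogenate and was 8.13-fold lower (4.28 to 17.4). Cdh5, the endothelial cadherin of adherens junctions, had 3.15 TPM in the synaptosome fraction and 8.63 TPM in the homogenate. It was 1.89-fold lower (1.44 to 2.50), which misses the 2-fold size with TMM scaling and passes it with library totals. Cd34, a surface sialomucin, had 52.3 TPM in the synaptosome fraction and 73.6 TPM in the homogenate, with a log2 ratio of 0.07 (-0.07 to 0.20).

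Among the tested genes of those lists, Sox17, a transcription factor of arterial endothelium, had the lowest ratio, with 1 count in the synaptosome fraction and 77 in the homogenate (ratio 0.020, 0.00051 to 0.12). Abcc6, an efflux transporter, had 4 counts in the synaptosome fraction and 47 in the homogenate and was 7.53-fold lower (2.75 to 28.8). At the other end, Epas1, a hypoxia-responsive transcription factor, had 5536 counts in the synaptosome fraction and 2419 in the homogenate and was 3.57-fold higher. Tspan12, a partner of the Wnt receptor of brain endothelium, was 2.76-fold higher (2.34 to 3.26), and the junction scaffold Tjp1 was 2.02-fold higher (1.90 to 2.15). Of the 6 that were higher, 1 was still so with library totals. Other genes of these lists stayed under the 2-fold size: Slc3a2, an amino acid carrier chain, had a log2 ratio of 0.97, S1pr1, a sphingosine 1-phosphate receptor, 0.89, and Plxnd1, a semaphorin receptor, 0.94. Plvap and Vwf, markers of fenestrated and of larger vessels chosen after their values were seen, had log2 ratios of -0.47 (-0.93 to -0.02) and -0.63 (-1.06 to -0.20).

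The paralogs of the barrier carriers and claudins lay close to the typical gene. Slco2b1 and Slco3a1 had log2 ratios of -0.29 and 0.07, and Cldn12 and Cldn1 had -0.00 and -0.19. Slco1a5 had 1 count in the synaptosome fraction and 5 in the homogenate, Cldn3 had 5 and 0, and Slco1a1 and Slco1a6 had 0 in both libraries, so these 4 were not tested.

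Values of cells that touch the endothelium differed by cell type. Of 15 tested mural cell markers, 7 (46.7%) were lower and 1 (6.67%) higher in the synaptosome fraction. The shares over all tested genes were 9.10% and 12.8%, and 34.5% of the wider endothelial lists were lower. The median log2 ratio of the mural markers was -0.99, with a range of -3.38 to 1.63. The mural list summed to 118.9 TPM in the synaptosome fraction and 222.7 TPM in the homogenate. Kcnj8, a pericyte potassium channel, had 4 counts in the synaptosome fraction and 65 in the homogenate, and Rgs5, a pericyte signalling regulator, had 67 and 285 (log2 ratio -1.45). Vtn, which pericytes make abundantly, had a log2 ratio of 0.03, and Cspg4, shared with oligodendrocyte precursors, had one of 1.63. Of 9 perivascular fibroblast markers, 1 (11.1%) was lower, close to the share of all tested genes, and 2 (22.2%) were higher. Their log2 ratios ranged from -1.16 for Slc47a1 to 1.18 for Col3a1. With library totals 1 was lower and 0 were higher, beside 25.6% and 4.49% of all tested genes.

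Endothelial cells, pericytes and astrocytes build the vascular basement membrane together. Of its 13 genes 0 were lower and 3 (23.1%) higher with TMM scaling, beside 9.10% and 12.8% of all tested genes. The median log2 ratio of 0.29 becomes -0.21 with library totals. There 2 of the 13 are lower and 1 higher, beside 25.6% and 4.49% of all tested genes. Sparc, a matrix protein also made by glia, was 5.34-fold higher, Agrn had a log2 ratio of 0.16, and Lama5 was the lowest at -0.74. Of 11 ligands for endothelial receptors, some of which neurons or glia release, 0 were lower and 5 (45.5%) higher with TMM scaling. With library totals 1 was higher, beside 4.49% of all tested genes. Apln, an angiogenic peptide, was 3.48-fold higher (3.14 to 3.85) and Vegfb 2.65-fold higher. Vegfa, the ligand of Flt1 and Kdr, had 806 counts in the synaptosome fraction and 1483 in the homogenate, with a log2 ratio of -0.24.

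Blood markers were low along with the endothelial genes. Of 6 tested, 6 were lower in the synaptosome fraction, beside 9.10% of all tested genes, with a median log2 ratio of -2.84. Most of the 6 are globin genes with copies so alike that reads may be divided between them by estimate. Hbb-b1 had a log2 ratio of -1.37, and Hbb-b2 had one of -5.26. The list summed to 186.5 TPM in the synaptosome fraction and 2162 TPM in the homogenate. The summed TPM of the 10 barrier genes was 53.3 in the synaptosome fraction and 363.6 in the homogenate. Microglia markers had 0 of 11 lower and 4 (36.4%) higher, beside 12.8% of all tested genes that were higher. Their median log2 ratio was 0.85, or 0.36 with library totals, where 2 were higher, beside 4.49% of all tested genes. The part of blood, mural or astrocyte RNA in the endothelial values was not tested.

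**Figure D4:**
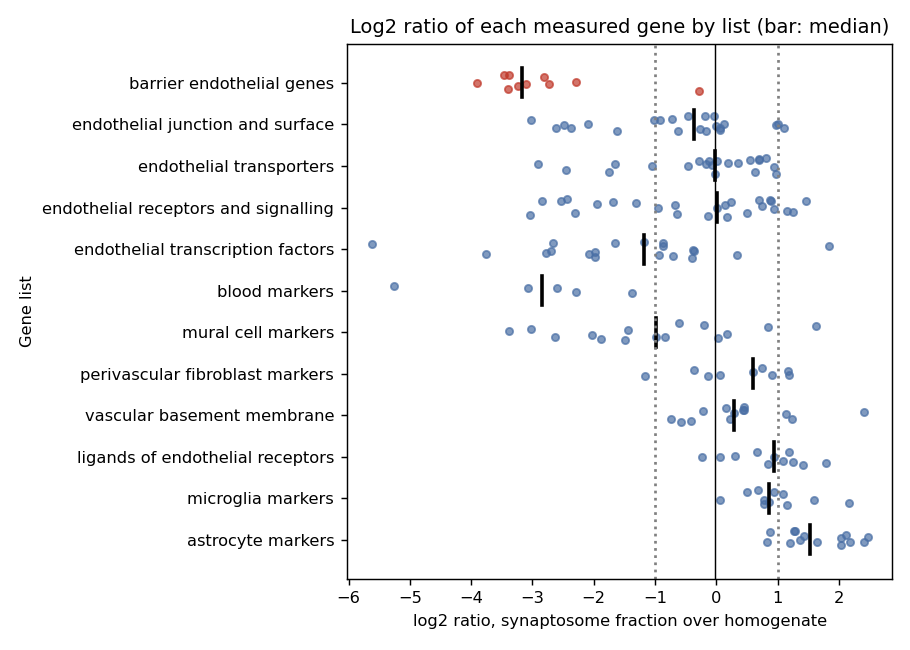
Log2 ratio of synaptosome fraction over homogenate for each tested gene by list, with the median as a black bar and the dotted lines at 2-fold. A gene without counts in the synaptosome fraction, Hba-a2, is not drawn. The barrier endothelial genes (median -3.17) and blood markers (-2.84) lie lowest, mural cell markers spread widely (-0.99), and astrocyte markers lie highest (1.54).

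Other named genes averaging 5 CPM or more after TMM scaling were ordered by how close their log2 ratio came to the median of the barrier genes. The 10 closest were Hba-a1, Neat1, Tie1, Amy1, Rps27, Cdc7, Ddx26b, Wsb1, Rnpc3 and Wdr52. Their log2 ratios lay between -3.42 and -2.64, and likeness was the difference in log2 ratio over 2 libraries. Of the 10, 2 were in a list of vessel or blood genes, namely Hba-a1, an alpha globin with a log2 ratio of -3.08, and Tie1. Rps27 has near-identical copies, which makes its own value uncertain. In all, 126 of the 14153 tested genes had a ratio at or below that of Abcb1a, and 9 of those were barrier genes, Abcb1a included.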

How the data were processed

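For 30383 transcripts in each library the authors deposited expected counts and TPM, which are estimates of RNA abundance. They also deposited a table of gene signal, used here as an alternative. The submitters' processing notes list mm10 as the build, and RSEM 1.2.5, TopHat 1.3.3, edgeR 3.0.6 and FastQC as tools, with no roles stated. RNA was prepared with a strand-specific kit and read at 100 bases, per the labels.

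Expected counts were summed per symbol, rounded, filtered at a mean of 1 CPM over library totals, and scaled by TMM (edgeR 4.0.16). Ratios have exact Clopper-Pearson intervals given the summed count (scipy 1.17.1), and TPM values exact Poisson intervals of the count. Reads copied by PCR are not independent molecules, and error in assigning reads to transcripts is not covered. The calculations were tested on simulated counts.

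The members and lists were chosen with earlier results of these data known. Named genes were the members, their paralogs, the endothelial defining markers, the 2 most abundant and the highest and lowest genes of each other list, and the 10 genes nearest the members' median; any other gene, motif or annotation term was chosen after the ratios were seen. The result for 1 gene is not reported here. Alternatives were other scalings, units, filters, fold rules, transcripts and merged paralogs.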

Additional observations from a re-analysis of the deposited data

How the results depend on the processing

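Of 130 values of single barrier genes under the alternatives, 130 kept their direction and their side of the size rule. Some of these values were fixed in advance. The filters leave a gene's ratio unchanged, a 1.5-fold rule cannot undo a call of lower, and a gene with a single transcript has no other to choose. The median log2 ratio of the 10 genes ranged from -3.67 to -2.76, and the number lower was 7 at a mean of at least 10 CPM, which removes Cldn5 and Tek, 8 without Slco1c1 and Pecam1, and 9 under the other alternatives. Abcb1a moved most, to -1.30 when summed with Abcb1b. With the most abundant transcript alone, Pecam1 had 0 counts in the synaptosome fraction, which counts as lower but gives no ratio. Posterior estimates of the counts, an alternative chosen after seeing the data, changed no call among the 10 genes.

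Counts over other genes depended more on the settings. The wider endothelial genes lower were 30, or 40 with library totals, 18 with a 4-fold rule and 4 at a mean of at least 10 CPM. Most of the 30 thus averaged under 10 CPM, and the share lower among the wider genes above it was not computed. Those higher were 6, and still 6 at a mean of at least 10 CPM. They were 18 with a 1.5-fold rule and 0 with a 4-fold rule. With library totals, TPM with a pseudocount of 0.1 and TPM with a pseudocount of 1, the number higher was 1 each. All genes lower were 1288, or 3629 with library totals, 3838 and 3062 with TPM at pseudocounts of 0.1 and 1, 2954 and 185 with 1.5-fold and 4-fold rules, and 578 at a mean of at least 10 CPM. All genes higher were 1807, or 636 with library totals, 562 and 473 with TPM at those pseudocounts, and 3391 and 169 with the 1.5-fold and 4-fold rules. Library totals and TPM lack the TMM shift, and stricter rules and filters can only keep or reduce a count. No paired analysis was possible because each group has 1 library, and for the same reason no library could be left out. Synaptosome counts of 18 to 63 in the 9 lower genes limit the order among them.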
